A study of Homo sapiens with 36 samples.

Results

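The 53 genes described here act in the G2 phase and in mitosis. They were chosen by symbol, and each symbol matched 1 of the 58302 Ensembl gene IDs in the count files through GENCODE. All 53 passed the filter on low counts in each of the 3 lines. Read counts came from 36 RNA sequencing libraries of JEKO, MINO and UPN-1, which are established human lines of mantle cell lymphoma. This is a B-cell cancer in which cyclin D1, a driver of G1, is usually overproduced. Cells in culture received the vehicle DMSO or GS716054, named in the series as an inhibitor of the histone lysine demethylase family KDM5, and were collected after 24 h or 72 h. The 12 groups were JEKO, MINO and UPN-1 cells with DMSO for 24 h, with GS716054 for 24 h, with DMSO for 72 h and with GS716054 for 72 h, and each held 3 biological replicates. No dose was stated in the sources used here, and each line stands for 1 patient's tumour grown as a culture. The labels call the replicates biological without saying whether they were separate cultures, so p-values measure the spread between these libraries. The question asked of the 53 genes was whether GS716054 changed their RNA in each line and at each time, and how they moved in DMSO alone between 24 h and 72 h.

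As background, transcripts of this group accumulate late in the cell cycle. Cyclin A and cyclin B bind the kinase CDK1, the CDC25 phosphatases activate it, and FOXM1 together with the MYBL2-containing complex drives transcription of many of the genes. At mitosis condensins compact the chromosomes, kinetochores attach them to spindle microtubules, and the spindle checkpoint holds back the anaphase promoting complex until attachment is complete. That ligase, with its activator CDC20, then marks securin and cyclin B for destruction, separase cuts cohesin, and cytokinesis follows. Because these RNAs are low in G1 and in resting cells, their summed level is often read as a measure of proliferation. In a bulk culture a lower level can come from fewer cells in G2 and mitosis or from less RNA per such cell, and the 2 cannot be told apart here.

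Promoters of such genes are known for 2 short motifs, the CCAAT box bound by NF-Y and the CHR element TTTGAA bound by the DREAM and MYBL2 complexes. Both were searched on either strand in the 250 bases before the transcription start in the RefSeq promoter table (GRCh38.p14), in which 46 of the 53 genes have an entry. TTK, BUB3, TPX2, BIRC5, UBE2C, AURKA and FOXM1 have none. CCAAT was present in 37 of the 46 genes (80.4%), against 37.0% of all 27305 genes in the table, and TTTGAA in 26 of 46 (56.5%) against 16.1%. Both motifs stood in 22 of 46 (47.8%), against 5.8% of all genes. Neither motif contains the other, and a match is a stretch of letters, not a measured binding site. The promoters of 5 genes described below are printed. CDC20 and DLGAP5 fell furthest over time in JEKO, and CCNB1 is the cyclin of mitotic entry. With GS716054 at 72 h, SPC25 was called lower in UPN-1, and CENPE in MINO only when replicates were paired, as described below. Whether a motif goes with a change was not tested. Each printed promoter is 250 bases, 5′ to 3′ on the gene's strand and ending 1 base before the RefSeq start, with CCAAT or TTTGAA, on either strand, in capitals.
CDC20: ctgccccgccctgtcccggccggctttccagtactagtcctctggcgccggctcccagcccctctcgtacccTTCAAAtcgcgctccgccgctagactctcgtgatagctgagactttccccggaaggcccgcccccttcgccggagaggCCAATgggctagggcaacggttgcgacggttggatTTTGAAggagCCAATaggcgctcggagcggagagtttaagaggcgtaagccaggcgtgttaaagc
DLGAP5: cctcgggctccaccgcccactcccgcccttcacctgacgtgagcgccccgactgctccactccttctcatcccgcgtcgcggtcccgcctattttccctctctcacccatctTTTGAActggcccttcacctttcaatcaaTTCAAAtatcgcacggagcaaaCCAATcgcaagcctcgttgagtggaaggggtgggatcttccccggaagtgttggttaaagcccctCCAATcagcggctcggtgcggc
CCNB1: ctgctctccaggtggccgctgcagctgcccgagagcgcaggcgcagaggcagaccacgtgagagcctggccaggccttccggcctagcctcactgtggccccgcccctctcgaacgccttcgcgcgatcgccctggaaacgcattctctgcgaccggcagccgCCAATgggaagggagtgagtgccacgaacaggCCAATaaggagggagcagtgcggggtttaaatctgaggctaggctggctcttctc
SPC25: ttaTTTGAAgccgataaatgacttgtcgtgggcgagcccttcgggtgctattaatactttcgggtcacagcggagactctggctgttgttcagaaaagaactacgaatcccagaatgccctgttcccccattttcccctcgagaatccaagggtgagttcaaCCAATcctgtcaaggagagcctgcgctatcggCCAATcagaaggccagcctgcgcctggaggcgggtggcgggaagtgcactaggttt
CENPE: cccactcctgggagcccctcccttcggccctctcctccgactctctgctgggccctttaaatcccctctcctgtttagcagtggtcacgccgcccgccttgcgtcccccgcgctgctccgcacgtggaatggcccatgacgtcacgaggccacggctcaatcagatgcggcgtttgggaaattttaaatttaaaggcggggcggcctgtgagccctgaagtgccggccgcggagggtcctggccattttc
The windows lie at chr1:43358731-43358980 on the plus strand (CDC20), chr14:55191586-55191835 on the minus strand (DLGAP5), chr5:69166900-69167149 on the plus strand (CCNB1), chr2:168890431-168890680 on the minus strand (SPC25) and chr4:103198344-103198593 on the minus strand (CENPE). CDC20, DLGAP5 and SPC25 hold both motifs, and CCNB1 holds 2 CCAAT boxes, beginning 87 and 55 bases before the start, and no TTTGAA. The genes themselves, in GENCODE v44 on GRCh38, are CDC20 at chr1:43358981-43363203, DLGAP5 at chr14:55148112-55191608, CCNB1 at chr5:69167135-69178245, SPC25 at chr2:168834132-168913371 and CENPE at chr4:103105349-103198445, and all are protein-coding. The GENCODE starts of DLGAP5, CCNB1, SPC25 and CENPE differ from the RefSeq starts used for the windows. Their windows therefore lie partly, and that of SPC25 wholly, inside the GENCODE gene. In the CENPE window neither set of letters was found, which says nothing of the factors beyond these letters in this window.

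Gene reads ranged from 8784815 to 14970876 per library, and the 53 genes took 28966 to 113754 of them. Levels are in CPM, a gene's counts in proportion to the reads in genes of its library, in the order of replicates 1, 2 and 3. They were scaled by edgeR's TMM normalization within the 12 libraries of each line. All 9 markers of B cells and of this lymphoma were detected in every group, from a CD5 mean of 1.99 CPM in UPN-1 to a CCND1 mean of 2887 CPM in JEKO. Markers of other cell types summed to between 7.7 and 64.2 CPM per library, highest in MINO with GS716054 at 72 h (43.6 to 64.2 CPM against 20.7 to 32.4 CPM in DMSO). Of those 15 genes, PF4, HBB and FCGR3A had 0 reads in all 36 libraries. In MINO at 72 h 1 of the 6 that could be tested, PECAM1, was called higher (4 when replicates were paired, as described below), and their part in the results below was not tested. At 72 h, JEKO replicate 1 stood apart in both arms: it was the lowest of the 3 libraries for 52 of the 53 genes in DMSO and for 53 of 53 with GS716054. MINO replicate 2 was likewise lowest for 39 of 53 in DMSO and for 52 of 53 with GS716054.

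**Figure D1:**
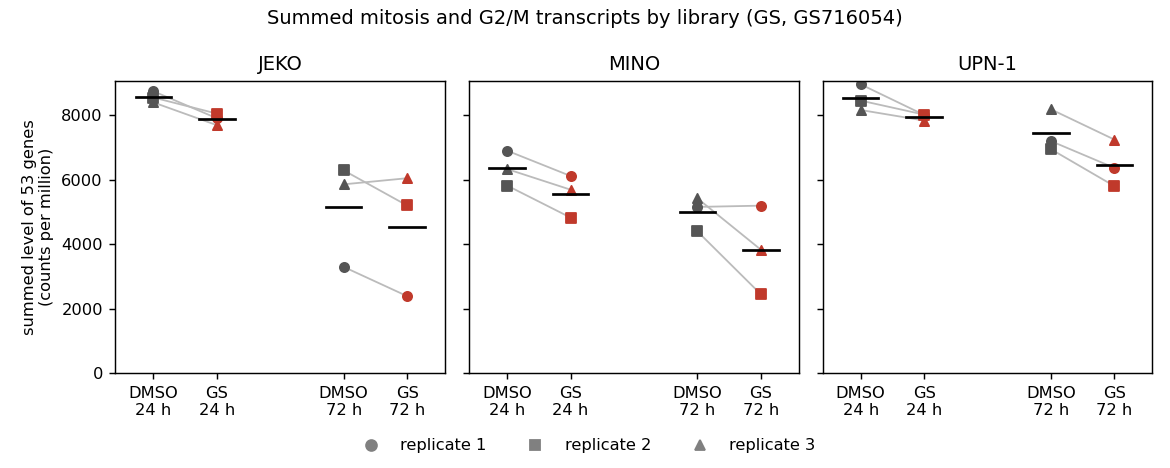
Summed level of the 53 genes in each of the 36 libraries, in CPM on an axis from 0, by line, treatment and time; marker shapes are replicate numbers, grey lines join DMSO and GS716054 libraries of 1 number, and black bars are means of 3. JEKO replicate 1 at 72 h is at 3298 CPM in DMSO and 2392.5 CPM with GS716054, and MINO replicate 2 at 2453 CPM with GS716054.

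Levels between genes are compared only per length, as CPM per kilobase of exon in the 24 h DMSO cells. UBE2C, the ubiquitin-conjugating enzyme of the anaphase promoting complex, led in JEKO at 154 CPM per kilobase, and TOP2A, the DNA topoisomerase that untangles sister chromatids, led in MINO at 108 and in UPN-1 at 127. CDC20 stood 5th, 2nd and 4th in JEKO, MINO and UPN-1, at 88.8, 93.0 and 104 CPM per kilobase. CENPE, the kinesin that carries chromosomes to the metaphase plate, was the lowest of the 53 in all 3 lines, at 3.72, 2.41 and 2.18 CPM per kilobase. BUB1, a checkpoint kinase at the kinetochore, was 6th in UPN-1 at 80.7 CPM per kilobase and 29th in JEKO at 27.5. Its 3 UPN-1 libraries held 558, 488 and 479 CPM, above the 172, 179 and 169 CPM of JEKO and the 233, 189.7 and 193 CPM of MINO, with no overlap. Each line was scaled by itself, and this difference between lines was not tested.

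Of the 9 comparisons of the 3 lines, the median of the group was furthest from 0 in JEKO cells kept in DMSO. Between 24 h and 72 h the summed level of the 53 genes went from 8742, 8548 and 8396 CPM to 3298, 6289.5 and 5858 CPM, and all 3 later libraries were below all 3 earlier ones. Gene by gene, 17 of 53 (32.1%) fell and 0 rose in the edgeR test, where a gene was called at an adjusted p under 0.05. Of the 16690 genes tested here, 31.7% were called in either direction and 14.6% were lower. The count was 44 of 53 without the low-count filter (17.9% of all genes called). It was 36 with a replicate block across both times (36.8% of all genes). All 53 log2 fold changes were below 0, as were 47.5% of those of all genes, and the median of the 53 was -0.71 against 0.05 for all genes. The 3 libraries at 72 h were below the 3 at 24 h for 44 of the 53 genes, against 25.1% of all genes.

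CDC20, the activator of the anaphase promoting complex, fell furthest. It read 176, 171 and 189 CPM at 24 h and 41.7, 80.7 and 75.7 CPM at 72 h, a log2 fold change of -1.44 ± 0.32 (SE; adjusted p = 0.00506). The groups did not overlap. DLGAP5, a microtubule-bundling factor of the spindle, had 58.2, 49.1 and 52.6 CPM and then 12.1, 28.9 and 26.4 CPM (log2 fold change -1.25 ± 0.37, adjusted p = 0.0199). In both genes replicate 1 gave the lowest 72 h value. Without that library CDC20 stayed called at a log2 fold change of -1.18 (adjusted p = 0.0209), DLGAP5 did not (-0.93, adjusted p = 0.0734), and the count of genes that fell went from 17 to 4. In that fit 1629 of 17017 genes were lower. Without DMSO replicate 2 at 72 h the count was 22, where 2005 of 17200 genes were lower.

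Of the 11 genes for kinases, cyclins and regulators of mitotic entry, 5 fell in JEKO: CCNA2, CCNB1, PLK1, AURKA and CDCA3. CCNA2, the cyclin of S phase and G2, went from 376, 371 and 384 CPM to 106, 224 and 203 CPM (log2 fold change -1.09, adjusted p = 0.0228). CCNB1, the cyclin B1 that takes CDK1 into mitosis, went from 263, 253 and 232 CPM to 90.2, 167 and 141 CPM (-0.91, adjusted p = 0.0269). In each gene the 2 groups did not overlap, and replicates 2 and 3 lay well above replicate 1 at 72 h. PLK1, the polo-like kinase of mitotic entry and exit, went from 326, 304 and 322 CPM to 83.7, 195 and 169 CPM (-1.09, adjusted p = 0.0268). AURKA, the kinase of centrosomes and spindle poles, had 145, 142 and 139 CPM and then 47.2, 93.2 and 73.2 CPM (-0.998, adjusted p = 0.0240). CDK1 itself had 225, 207 and 195 CPM and 93.7, 162 and 123 CPM, without overlap, and missed the threshold (-0.73, adjusted p = 0.0683). FOXM1 gave 210.0, 216 and 243 CPM and 107, 145 and 179 CPM and also missed it (-0.64, adjusted p = 0.0736). FOXM1 shares 15.9%, PLK1 12.8%, CDCA3 11.3% and CCNA2 9.2% of their exonic bases with other genes, and whether counting used strand is not given in the sources used here.

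In the checkpoint and anaphase group 3 of 10 fell in JEKO, CDC20, BUB1 and MAD2L1. BUB1 went from 172, 179 and 169 CPM to 53.3, 111 and 94.2 CPM (log2 fold change -1.01, adjusted p = 0.0104), again with no overlap. MAD2L1, the checkpoint protein that binds CDC20, lay at the threshold (-0.54, adjusted p = 0.0497) and lost its call with DESeq2 size factors (adjusted p = 0.0520). BUB3, the BUB1 partner that also serves interphase cells, had 334, 335 and 334 CPM and 186, 274 and 248 CPM (-0.50, adjusted p = 0.0522). In the chromosomal passenger complex 2 of 4 fell, BIRC5 (survivin; -1.05, adjusted p = 0.0150) and CDCA8, while its kinase AURKB had 83.4, 79.0 and 69.7 CPM and then 36.7, 63.3 and 60.9 CPM (-0.53, adjusted p = 0.240). Of the 9 spindle genes DLGAP5, KIF11 and KIF18A fell, with KIF11, the kinesin that pushes spindle poles apart, at -1.18 (adjusted p = 0.0160). Of 7 chromosome structure genes the condensin subunits NCAPG and SMC2 fell. TOP2A had 585, 509 and 511 CPM and 141, 373 and 351 CPM (-0.89, adjusted p = 0.0843), and MKI67, the coat protein of mitotic chromosomes used as a proliferation marker, had 334, 316 and 275 CPM and 89.7, 253 and 261 CPM (-0.61, adjusted p = 0.214). For MKI67 replicates 2 and 3 came close to the 24 h values and replicate 1 did not. ECT2 and KIF23 fell among the 5 cytokinesis genes, and KIF20A missed the threshold with 95.1, 91.2 and 95.2 CPM and 24.5, 73.7 and 59.2 CPM (-0.84, adjusted p = 0.101). Of the 7 kinetochore genes 0 were called in JEKO by edgeR or by DESeq2, and 2 had an unadjusted p under 0.05, as did 44.1% of all genes.

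In MINO and UPN-1 the medians over the same interval lay nearer 0, and no gene passed the test. In MINO the summed level went from 6901, 5820.1 and 6331 CPM to 5157, 4402 and 5425 CPM, with no overlap, and in UPN-1 from 8956, 8452 and 8161 CPM to 7197, 6946 and 8182 CPM, where replicate 3 at 72 h overlapped the earlier libraries. The edgeR test called 0 of 53 in each line, against 0.0932% of all genes in MINO and 1.47% in UPN-1. At an unadjusted p under 0.05 there were 6 of 53 in MINO and 12 in UPN-1, smaller shares than the 23.8% and 25.5% of all genes. DESeq2 called 1 of 53 in each line, against 6.53% and 6.73% of all genes. With the replicate number as a block across both times 4 and 7 of 53 were called, against 12.1% and 18.3%, and without the low-count filter 9 and 1, against 6.32% and 6.43%. The medians were -0.36 in MINO and -0.18 in UPN-1, against 0.04 and 0.02 for all genes, with 51 and 49 of 53 below 0. CDC20 had 204, 164 and 193 CPM and 99.4, 88.7 and 102 CPM in MINO (log2 fold change -0.95, adjusted p = 0.113), which did not overlap, and 215, 204 and 208 CPM and 159, 121 and 197 CPM in UPN-1 (-0.39, adjusted p = 0.150). CDCA8, the chromosomal passenger subunit borealin, had 137, 109 and 137 CPM and 90.4, 66.8 and 92.7 CPM in MINO (-0.61, adjusted p = 0.211). AURKA had 132, 109 and 115 CPM and 79.6, 71.3 and 83.5 CPM in MINO (-0.60, adjusted p = 0.132). In all 3 genes the later MINO libraries were below the earlier ones. In UPN-1, SMC2, a condensin ATPase, had 139, 143 and 146 CPM and 102, 89.9 and 129 CPM (-0.42, adjusted p = 0.134), and CCNA2 had 315, 295 and 291 CPM and 219, 189.9 and 272 CPM (-0.40, adjusted p = 0.115). SPC24, a subunit of the NDC80 complex that grips microtubule ends, stood out by its direction in UPN-1. Its 36.7, 33.3 and 35.7 CPM at 24 h were all below the 58.6, 48.4 and 44.2 CPM at 72 h (0.52, adjusted p = 0.0663). CENPE was also above 0 in both lines, at 0.43 in MINO and 0.44 in UPN-1, each with overlapping libraries and an adjusted p of 0.450 and 0.284. In MINO that value turned to -0.11 with the block and without replicate 3. Whether the change over time differed among the lines was not tested.

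**Figure D2:**
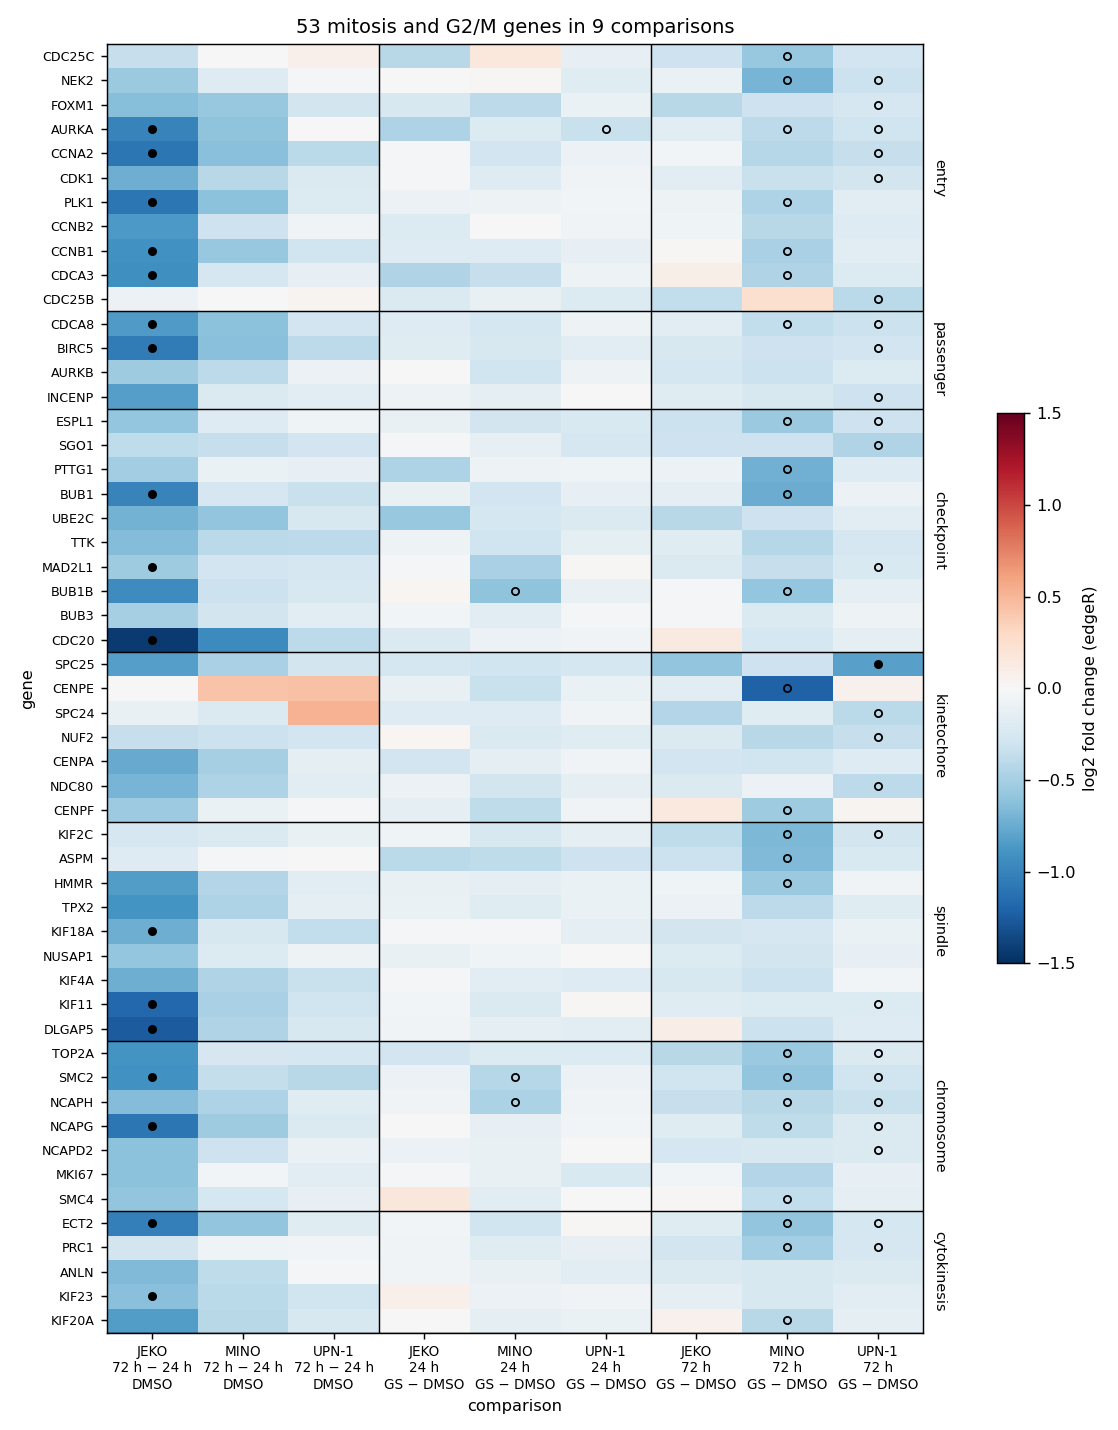
Log2 fold changes of the 53 genes (rows, grouped by role and ordered within a role by the mean treatment effect at 72 h) in 9 comparisons (columns), from the edgeR fit without pairing; blue is lower and red is higher, filled circles mark an adjusted p under 0.05, and open circles mark genes that passed only with the replicate number as a block within each time. The JEKO DMSO column holds 17 filled circles, and the MINO and UPN-1 columns at 72 h hold 24 open ones and, in UPN-1, 24 open ones and 1 filled (SPC25).

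After 24 h of GS716054 the 53 genes sat slightly lower in every line, with no gene passing the test. The counts were 0 of 53 in JEKO, MINO and UPN-1, against 0.018%, 2.39% and 0.0262% of all genes called by edgeR, and DESeq2 also called 0, against 0.186%, 6.23% and 0.138%. At an unadjusted p under 0.05 there were 0, 1 and 1 of 53, smaller shares than the 3.97%, 17.7% and 3.78% of all genes. The medians were -0.09, -0.19 and -0.10 on the log2 scale against -0.01, 0.01 and 0.00 for all genes, and 47, 50 and 49 of 53 were below 0, against 51.1% of all genes in JEKO. CCNB1 shows the size of the difference: it had 263, 253 and 232 CPM in DMSO and 227, 213 and 212 CPM with GS716054 in JEKO, 189, 191 and 167 CPM and 157, 149 and 174 CPM in MINO, and 227, 220.0 and 202 CPM and 209, 208 and 179 CPM in UPN-1. Summed over the 53 genes, GS716054 libraries were lower than the DMSO library of the same number in 9 of 9 pairs, at ratios of 0.829 to 0.960.

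Same-numbered DMSO and GS716054 libraries of 1 time deviated together in all 6 comparisons, most weakly in JEKO at 24 h, so the fit was repeated with the replicate number as a block within each time (the paired fit), a choice made after the data were seen. In MINO at 24 h it called 3 of 53 lower, a smaller share than the 7.36% of all genes called lower. BUB1B, the checkpoint kinase-like protein BUBR1, had 64.6, 58.8 and 57.9 CPM in DMSO and 46.5, 35.4 and 37.0 CPM with GS716054, lower in each pair (log2 fold change -0.62 ± 0.13, paired adjusted p = 0.00727, unpaired 0.229). NCAPH, the condensin kleisin, had 81.7, 67.4 and 73.8 CPM and 65.1, 41.0 and 55.0 CPM (-0.49, paired adjusted p = 0.0340, unpaired 0.420). SMC2 was the third, at -0.43 (paired adjusted p = 0.0160). BUB1B shares 10.2% of its exonic bases with a gene of the same strand. In UPN-1 the paired fit called AURKA alone, against 0.577% of all genes called lower. AURKA had 90.2, 87.4 and 79.7 CPM and 69.8, 73.1 and 60.6 CPM (-0.34 ± 0.07, paired adjusted p = 0.0197, unpaired 1.00). In JEKO, AURKA had 145, 142 and 139 CPM and 107, 88.9 and 114 CPM (-0.46, adjusted p = 1.00), and the lowest value of the 53 there was UBE2C at -0.57 (adjusted p = 1.00). Over the 3 lines together AURKA had a mean log2 fold change of -0.32 (adjusted p = 0.326, paired 0.0166) and ASPM, which holds spindle poles together, of -0.35 (adjusted p = 0.394, paired 0.0188). The model of all lines called 0 of 53 unpaired, against 0.929% of all genes, and 5 lower when paired, against 3.77%.

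**Figure D3:**
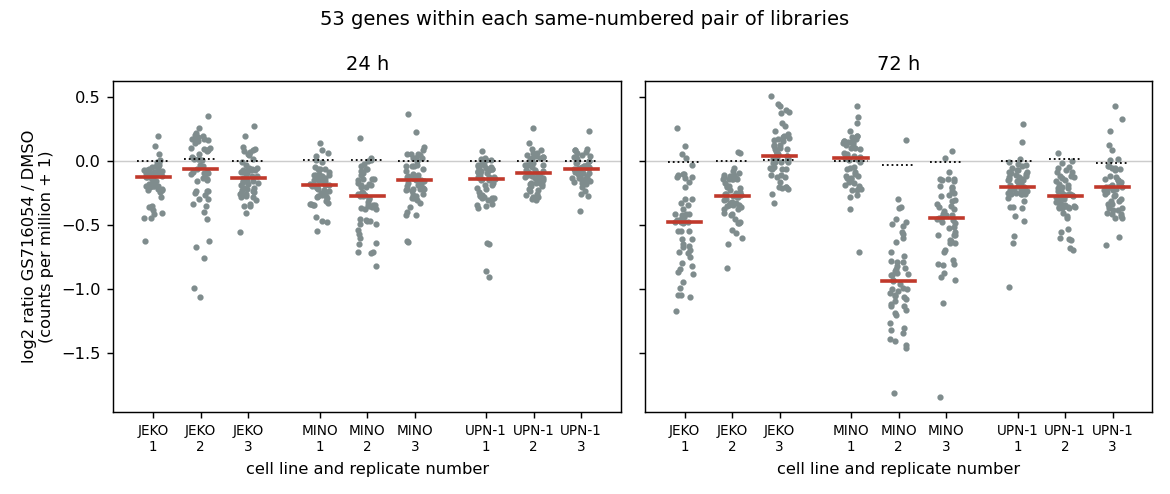
Log2 ratio of GS716054 to DMSO for each of the 53 genes (grey points) within each same-numbered pair of libraries, with 1 CPM added to each value, at 24 h and 72 h; red bars are medians of the 53 and dotted bars are medians of all genes tested in that line. At 72 h the pair medians run from -0.94 in MINO pair 2 to 0.04 in JEKO pair 3.

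After 72 h of GS716054 in MINO, the 53 genes were lower in 2 of the 3 same-numbered pairs. The summed level was 5157, 4402 and 5425 CPM in DMSO and 5197, 2453 and 3834 CPM with GS716054. The treated to DMSO ratios within pairs were 1.01, 0.557 and 0.707, so pairs 2 and 3 were lower and pair 1 was not. Pair medians over the 53 genes were 0.02, -0.94 and -0.44 on the log2 scale, and 23, 52 and 51 of the 53 were lower in pairs 1, 2 and 3. Reads of mitochondrial genes, as a percentage of gene reads, went from 6.34 to 6.25 in pair 1, from 3.62 to 4.61 in pair 2 and from 3.58 to 6.15 in pair 3, and their part in the result was not tested. The unpaired edgeR test called 0 of 53, against 5.56% of all genes, and 12 had an unadjusted p under 0.05, a share near the 22.2% of all genes. DESeq2 called 3 of 53, against 10.4% of all genes. The lowest adjusted p in edgeR was that of PTTG1 (securin), at 0.0505 for a log2 fold change of -0.72. The median was -0.39 against -0.03 for all genes, 52 of 53 were below 0, and 23 were lower in all 3 pairs, against 25.8% of all genes. The paired fit called 24 of 53 (45.3%) lower and 0 higher, against 9.8% of all genes called lower. That count was 4 without pair 3, 18 without pair 2 and 32 without pair 1. Of all genes, 640 of 15186, 2164 of 15102 and 643 of 15122 were called lower in those fits.

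Of the 53 genes CENPE had the lowest log2 fold change in MINO, and it read 36.2, 17.1 and 43.2 CPM in DMSO and 21.8, 8.89 and 11.4 CPM with GS716054. It was lower in each pair, and DMSO replicate 2 lay below treated replicate 1. The log2 fold change was -1.20 ± 0.22 (paired adjusted p = 0.00201, unpaired 0.0677). It was -1.33 without pair 2 and -0.83 without pair 3 (paired adjusted p = 0.0315). BUB1 had 166, 179 and 173 CPM and 138, 71.5 and 98.6 CPM, which did not overlap (-0.79 ± 0.16, paired adjusted p = 0.00367, unpaired 0.0530). BUB1B had 52.1, 35.9 and 57.0 CPM and 45.4, 19.4 and 32.2 CPM (-0.63, paired adjusted p = 0.00598). PTTG1 and ESPL1, the securin that guards separase and separase itself, fell too, so 4 of the 10 checkpoint and anaphase genes were called in the paired fit. CDC20 was not among them, with 99.4, 88.7 and 102 CPM and 114, 44.04 and 85.0 CPM (-0.35, paired adjusted p = 0.161), where treated replicate 1 was the highest of the 6. Unpaired, the CDC20 value turned to 0.03 without treated replicate 2 and was -0.58 without treated replicate 1.

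Among the entry genes 6 of 11 fell in MINO in the paired fit: NEK2, CDC25C, CCNB1, PLK1, CDCA3 and AURKA. NEK2, a kinase that separates centrosomes, was lowest at -0.75 (paired adjusted p = 0.0476). Its log2 ratios, with 1 CPM added, were 0.15, -1.81 and -0.61 in pairs 1, 2 and 3, so pair 1 was not lower. CCNB1 had 137, 96.4 and 134 CPM and 126, 49.9 and 86.7 CPM (-0.56, paired adjusted p = 0.0142, unpaired 0.280). PLK1 had 106, 108 and 125 CPM and 114, 47.4 and 83.7 CPM (-0.54, paired adjusted p = 0.0430). In both genes only replicates 2 and 3 were clearly lower. CDK1 had 81.9, 83.1 and 70.9 CPM and 91.2, 32.2 and 64.3 CPM (-0.43, paired adjusted p = 0.167), FOXM1 76.3, 61.2 and 87.7 CPM and 85.2, 32.8 and 64.7 CPM (-0.38, paired adjusted p = 0.110), and CCNA2 102, 94.6 and 117 CPM and 111, 41.0 and 81.3 CPM (-0.52, paired adjusted p = 0.0543). These 3 missed the threshold, and in each of them treated replicate 1 was above its DMSO partner and treated replicate 2 the lowest of the 6. AURKA had 79.6, 71.3 and 83.5 CPM and 82.1, 40.0 and 56.7 CPM (-0.44, paired adjusted p = 0.0382).

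Of the 7 chromosome structure genes 5 fell in MINO in the paired fit: TOP2A, SMC2, NCAPH, NCAPG and SMC4. TOP2A had 570.5, 548 and 619.5 CPM and 549.5, 252 and 379.5 CPM, lower in every pair (-0.63 ± 0.17, paired adjusted p = 0.0178, unpaired 0.172). MKI67 had 270.3, 139 and 307 CPM and 252, 113 and 164 CPM (-0.44, paired adjusted p = 0.0590). In DMSO the MKI67 value of replicate 2 was far under the other 2, as it was with GS716054. NCAPG shares 33.7% and SMC4 22.0% of exonic bases with genes of the opposite strand. Of 9 spindle genes KIF2C, ASPM and HMMR fell. KIF2C, a kinesin that takes microtubules apart at the kinetochore, had 78.5, 93.0 and 91.3 CPM and 79.5, 33.8 and 51.7 CPM (-0.75, paired adjusted p = 0.0165). Of 7 kinetochore genes CENPE and CENPF fell, of 5 cytokinesis genes ECT2, PRC1 and KIF20A, and of 4 passenger genes CDCA8. KIF20A, the kinesin of the midzone, had 52.4, 53.2 and 57.2 CPM and 54.0, 27.5 and 40.7 CPM (-0.46, paired adjusted p = 0.0465). AURKB had 83.2, 79.6 and 98.8 CPM and 103, 35.8 and 71.0 CPM (-0.43, paired adjusted p = 0.134). PRC1 shares 34.3% of its exonic bases with an antisense gene and 57.6% with a gene model of its own strand.

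In UPN-1 at 72 h the 53 genes were lower by a like amount in each of the 3 pairs. Its summed level was 7197, 6946 and 8182 CPM in DMSO and 6368, 5802 and 7244 CPM with GS716054, and the ratios within pairs were 0.885, 0.835 and 0.885. The mitochondrial percentage was higher with GS716054 in all 3 pairs (from 2.66 to 3.77, from 2.17 to 3.24 and from 1.91 to 2.15), as it was in the 3 pairs at 24 h, and its part in the result was not tested. The median log2 fold change was -0.22 against 0.00 for all genes, 51 of 53 were below 0, and 44 were lower in all 3 pairs, against 18.5% of all genes. The unpaired edgeR test called SPC25 alone, against 0.334% of all genes, and 16 of 53 had an unadjusted p under 0.05, as did 7.41% of all genes. In the paired fit 25 of 53 (47.2%) were lower and 0 higher, against 3.29% of all genes called lower. That count was 2 without pair 1 and 23 without pair 3, and the counts over all genes in those fits are not given here.

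SPC25 belongs with SPC24, NDC80 and NUF2 to the 4-subunit NDC80 complex, the main microtubule anchor of the kinetochore. SPC25 had 23.7, 15.3 and 19.7 CPM in DMSO and 11.5, 9.77 and 12.1 CPM with GS716054. Every treated library was below every DMSO library. The log2 fold change was -0.81 ± 0.16 (adjusted p = 0.0406, paired 1.58e-04). The unpaired call was lost when any of 5 of the 6 libraries was left out by itself, with adjusted p up to 0.231 without DMSO replicate 1, where the log2 fold change was -0.65. All 4 subunits were called in the paired fit. NDC80 had 51.2, 47.1 and 51.7 CPM and 39.8, 31.8 and 42.9 CPM (-0.39 ± 0.08, paired adjusted p = 0.00429, unpaired 0.316). SPC24 had 58.6, 48.4 and 44.2 CPM and 43.3, 29.9 and 40.8 CPM (-0.41, paired adjusted p = 0.0100, unpaired 0.412), and NUF2 47.7, 54.8 and 61.4 CPM and 36.8, 45.1 and 46.9 CPM (-0.35, paired adjusted p = 0.00478, unpaired 0.486). The complex was described together after its values were seen. The other 3 kinetochore genes, CENPA, CENPE and CENPF, were not called in UPN-1, and CENPE had 21.1, 35.5 and 31.3 CPM and 26.005, 25.8 and 39.6 CPM. In the other lines SPC25 had 12.6, 24.0 and 24.2 CPM and 5.04, 14.9 and 20.1 CPM in JEKO (-0.60, adjusted p = 0.761) and 18.2, 9.58 and 20.3 CPM and 16.1, 6.75 and 16.3 CPM in MINO (-0.31, adjusted p = 0.610). It was lower in 3 of 3 pairs in each line, and no test of a difference among lines passed for it.

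**Figure D4:**
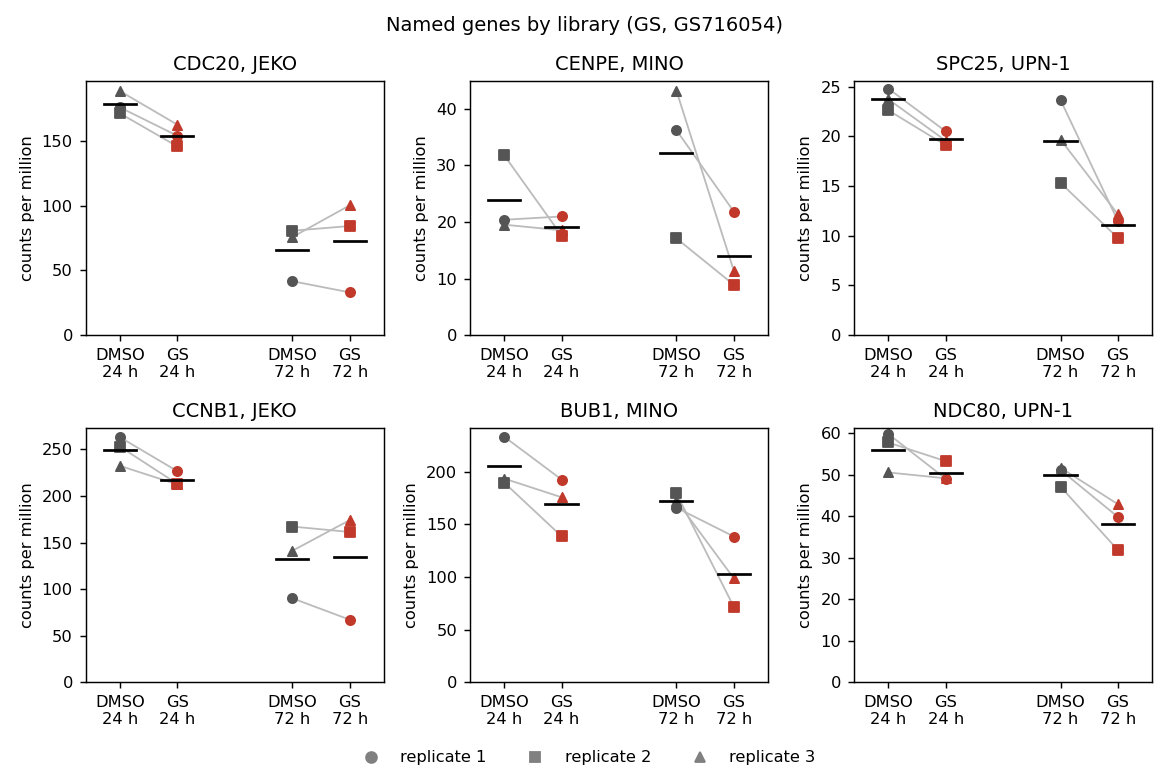
Level in CPM in each library for CDC20 and CCNB1 in JEKO, CENPE and BUB1 in MINO, and SPC25 and NDC80 in UPN-1, on axes from 0; marker shapes are replicate numbers, grey lines join same-numbered DMSO (grey) and GS716054 (red) libraries, and black bars are means of 3. CDC20 in JEKO drops between times in both arms, and SPC25 and NDC80 in UPN-1 separate DMSO from GS716054 at 72 h.

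Of the entry genes in UPN-1, 6 of 11 fell in the paired fit: CDC25B, CCNA2, NEK2, AURKA, CDK1 and FOXM1. CCNA2 had 219, 189.9 and 272 CPM and 187, 148 and 199.6 CPM (-0.34, paired adjusted p = 0.00110, unpaired 0.578). CDK1 had 195, 172 and 213 CPM and 166, 152 and 161 CPM (-0.27, paired adjusted p = 0.00730), and AURKA 85.4, 75.1 and 95.7 CPM and 78.5, 58.2 and 70.9 CPM (-0.31, paired adjusted p = 0.0113). For these 3 the treated library was the lower of each pair. FOXM1 had 153, 106 and 148 CPM and 130.4, 86.7 and 126 CPM (-0.25, paired adjusted p = 0.0126). CCNB1 had 156, 161 and 209 CPM and 147, 155 and 166 CPM (-0.16, paired adjusted p = 0.156) and PLK1 204, 167 and 238 CPM and 195, 143 and 205 CPM (-0.17, paired adjusted p = 0.0854), so the cyclin B1 and polo-like kinase genes called in MINO missed the threshold in UPN-1. Of the chromosome structure genes 5 of 7 fell (TOP2A, SMC2, NCAPH, NCAPG and NCAPD2), with TOP2A at 559, 675 and 799 CPM and 492, 564 and 688 CPM (-0.22, paired adjusted p = 0.0243). Of the passenger genes INCENP, BIRC5 and CDCA8 fell, and AURKB had 78.3, 62.1 and 73.7 CPM and 75.4, 49.0 and 60.9 CPM (-0.22, paired adjusted p = 0.0686). The others that fell were ESPL1, MAD2L1 and SGO1, the protector of centromeric cohesin, among 10 checkpoint genes, KIF2C and KIF11 among 9 spindle genes, and ECT2 and PRC1 among 5 cytokinesis genes. SGO1 shares 15.8% of its exonic bases with its antisense gene. Not called in either fit were MKI67, with 315, 369 and 334 CPM and 301, 243 and 395 CPM, CDC20, with 159, 121 and 197 CPM and 156, 114 and 159.5 CPM, KIF20A, with 97.1, 105 and 106 CPM and 90.0, 86.7 and 102 CPM, and BUB3, with 280.1, 322 and 391.8 CPM and 279, 319.6 and 345 CPM. All 4 overlapped between the arms.

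JEKO at 72 h gave no called gene in any fit of all 12 libraries. Summed levels were 3298, 6289.5 and 5858 CPM in DMSO and 2392.5, 5202 and 6047 CPM with GS716054. Within pairs the ratios were 0.725, 0.827 and 1.03, so pairs 1 and 2 were lower and pair 3 was not. The counts were 0 of 53 in edgeR, paired or unpaired, and 0 in DESeq2, against 0.3% of all genes called unpaired, 1.44% called lower when paired and 1.36% called by DESeq2. At an unadjusted p under 0.05 there was 1 of 53, against 8.62% of all genes. The median was -0.18 against 0.00 for all genes, and 46 of 53 were below 0. KIF2C had 78.7, 109 and 108 CPM and 45.1, 85.3 and 96.1 CPM (-0.38, adjusted p = 0.719), TOP2A 141, 373 and 351 CPM and 88.7, 253 and 306 CPM (-0.42, adjusted p = 0.881), and FOXM1 107, 145 and 179 CPM and 58.4, 122 and 143 CPM (-0.41, adjusted p = 0.763). Each was lower in 3 of 3 pairs, and in each replicate 1 was the lowest library of its arm. CDC20, with 33.0, 84.3 and 100.3 CPM against 41.7, 80.7 and 75.7 CPM in DMSO, and CCNB1, with 67.2, 161 and 174 CPM against 90.2, 167 and 141 CPM, did not separate the arms.

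The other entry and checkpoint genes of JEKO at 72 h show the same order of libraries, with replicate 1 lowest in both arms. CDK1 had 93.7, 162 and 123 CPM in DMSO and 52.8, 144 and 141 CPM with GS716054, and PLK1 had 83.7, 195 and 169 CPM and 62.9, 163 and 199 CPM. CCNA2 had 106, 224 and 203 CPM and 77.1, 204 and 236 CPM, and AURKA had 47.2, 93.2 and 73.2 CPM and 32.0, 61.1 and 96.1 CPM. BUB1 had 53.3, 111 and 94.2 CPM and 48.6, 88.8 and 98.7 CPM, and BUB3 had 186, 274 and 248 CPM and 170.4, 249.6 and 278 CPM. In each of these 6 genes the 2 arms overlapped. MKI67 had 89.7, 253 and 261 CPM and 97.5, 203 and 286 CPM, AURKB 36.7, 63.3 and 60.9 CPM and 17.3, 51.5 and 65.1 CPM, and KIF20A 24.5, 73.7 and 59.2 CPM and 22.8, 69.1 and 71.9 CPM. CENPE had 25.4, 36.8 and 48.3 CPM and 17.1, 32.1 and 49.5 CPM. These 4 overlapped as well.

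Averaged over the 3 lines at 72 h, all 53 genes were below 0, with a median of -0.27 against -0.01 for all genes. The unpaired model of 36 libraries called 1 of 53, KIF2C, against 4.66% of all genes, and 21 of 53 had an unadjusted p under 0.05, as did 18.0% of all genes. The paired model called 44 of 53 (83.0%) lower, against 8.44% of all genes called lower, and left out CDCA3, CDC20, BUB3, CENPF, DLGAP5, KIF20A, KIF23, ANLN and MKI67. Leaving out a number moved the paired count to between 19 (without 2) and 30 (without 1). Of all genes, 979 of 18075 and 600 of 17947 were called lower in those fits. KIF2C had a mean log2 fold change of -0.45 ± 0.12 (adjusted p = 0.0272, paired 6.28e-04). In UPN-1 it had 76.9, 61.3 and 69.0 CPM and 62.9, 45.4 and 63.5 CPM, and it was lower in 8 of 9 pairs. Its unpaired call was lost without 6 of the 18 libraries of 72 h taken 1 at a time, with an adjusted p up to 0.0932. SPC25 had the lowest mean, -0.58 ± 0.19 (adjusted p = 0.0685, paired 6.88e-05). Of the difference between the effects at 72 h and at 24 h, 0 of 53 were called in any line by edgeR, paired or unpaired, or by DESeq2. The unpaired shares of all genes called were 0.0% (JEKO), 0.0133% (MINO) and 0.0% (UPN-1), and the paired ones 0.0%, 0.679% and 0.0459%. The counts at an unadjusted p under 0.05 were 0, 2 and 1 in JEKO, MINO and UPN-1, against 1.79%, 5.02% and 1.52% of all genes. A larger effect at 72 h than at 24 h was therefore not shown for any of the genes.

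Few differences among the lines in the response were called. The unpaired test of a difference called 0 of 53 at 24 h and at 72 h, against 0.106% and 1.01% of all genes, with 0 and 2 at an unadjusted p under 0.05, against 7.37% and 11.2% of all genes. When paired it called BUB1B at 24 h (adjusted p = 0.0397) and CDC25B, BUB1, CENPE and BUB1B at 72 h, in each case a smaller share than that of all genes, which was 5.74% and 9.78%. CDC25B, a phosphatase that starts CDK1 activation at the centrosome, was the most marked (paired adjusted p = 0.00138, unpaired 0.155). It had 159.8, 165 and 160.4 CPM in DMSO and 217, 185 and 169.7 CPM with GS716054 in MINO, where the treated libraries were all higher. In UPN-1 it had 334, 259 and 247 CPM and 241, 202 and 191 CPM, where they were all lower, and in JEKO 194, 259 and 216 CPM and 124, 205 and 188 CPM, lower in every pair. The log2 fold changes were 0.24 in MINO, -0.40 in UPN-1 and -0.37 in JEKO. The paired adjusted p of the difference was 0.0172 for BUB1 and 0.0219 for CENPE. In UPN-1 at 72 h BUB1 had 362, 385 and 464 CPM and 335, 356 and 446 CPM, a small step down in every pair.

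Other genes of the cell cycle were followed through 7 further lists by symbol, as counts. In JEKO DMSO cells 14.6% of all genes fell and 17.1% rose, which is the reference for the counts of this comparison. In JEKO DMSO cells, 7 of 17 subunits and partners of the anaphase promoting complex fell between 24 h and 72 h, with ANAPC1, a scaffold subunit, at a log2 fold change of -0.99 and ANAPC10 at -0.87. Of 26 other kinetochore genes 11 fell, led by CENPL at -1.10 and CENPI at -1.09, as did 11 of 24 other spindle and cytokinesis genes and 8 of 15 other condensin and cohesin genes. Among 11 regulators of mitotic transcription, TFDP1, the partner of E2F factors (-1.14), E2F8 (-1.11) and RBBP4 fell, while RBL2, the pocket protein of the repressive DREAM complex, rose (0.80, adjusted p = 0.00825). RBL2 shares 16.4% of its exonic bases with genes of the opposite strand. Of 13 brakes and accelerators of mitotic entry 2 fell and 1 rose. The DNA replication and G1/S list had 24 of 40 lower and 0 higher, with a median of -0.92.

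Under GS716054 at 72 h the paired fit called lower, in MINO, 2 of 17 anaphase promoting complex genes, 3 of 26 other kinetochore genes, 9 of 24 other spindle genes, 4 of 15 other condensin and cohesin genes, 3 of 13 brakes and accelerators of entry, 0 of 11 transcription regulators and 15 of 40 DNA replication genes. Of all genes 9.8% were called lower in that fit, so the shares of the anaphase promoting complex and other kinetochore lists were near it. In UPN-1, where 3.29% of all genes were called lower, these counts were 1 of 17, 9 of 26, 9 of 24, 2 of 15, 0 of 13, 2 of 11 and 13 of 40, and in JEKO, where 1.44% were, 0 of 17, 1 of 26, 0 of 24, 2 of 15, 1 of 13, 0 of 11 and 8 of 40. The 2 regulators in UPN-1 were E2F8 (-0.60, paired adjusted p = 6.43e-04) and E2F7 (-0.43, paired adjusted p = 0.00299), the atypical E2F repressors. At 24 h in MINO the paired fit called 27 of 40 DNA replication genes lower, with a median of -0.49, against 7.36% of all genes, beside 3 of the 53 mitotic genes with a median of -0.19. Of the 9 B-cell and mantle cell identity genes 2 were called higher and 0 lower in MINO at 72 h in the unpaired fit, where 3.51% of all genes were higher, and 3 and 0 in the paired fit, where 10.4% were. Their summed level at 72 h went the other way in JEKO, from 4166, 5075 and 4181 CPM in DMSO to 3009, 4092 and 3622 CPM. In UPN-1 it went from 4932, 3972 and 4060 CPM to 4467, 3930 and 3681 CPM, also lower in every pair. These sums were not tested. No test of 1 list against another was made.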

How the data were processed

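RNA was sequenced from 3 lines, 2 treatments and 2 times, with 3 biological replicates per group. The authors deposited raw read counts per Ensembl gene ID. Per the submitters' processing notes, GRCh38, HISAT2 2.2.1 and HTSeq 0.13.5 were used. Annotation release and strand setting are not given in the sources used here. GENCODE v44 named 57532 of 58302 IDs and left 770 unnamed. The 5 summary lines per file, 55.09% to 59.3% of all counted reads, were left out. Gene reads numbered 8784815 to 14970876 per library, and levels rest on these depths.

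For each line its 12 libraries were fitted with edgeR 4.0.16 (quasi-likelihood test, TMM scaling, genes kept by filterByExpr at min.count 10 and min.total.count 15, in R 4.3.3). A second model took all 36. P-values were Benjamini-Hochberg adjusted over all genes tested, and a gene was called at an adjusted p under 0.05. DESeq2 1.42.0 served as an alternative. The unpaired edgeR steps were tested on simulated counts with known changes at 24 h. They recovered 26.8%, 19.1% and 57% of 2-fold changes in JEKO, MINO and UPN-1. Of 1.5-fold changes they recovered 2.3%, 3.8% and 17.8%. A gene that was not called is therefore not shown to be unchanged. Alternatives also changed the scaling, the filter, the replicate block and the libraries included. The pair plot used log2 ratios after adding 1 CPM.

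The labels give groups the same replicate numbers. Deviations from group means of same-numbered DMSO and GS716054 libraries of 1 time correlated in every pair at 0.107 to 0.593 in 5 of 6 comparisons, and at 0.055 to 0.213 in JEKO at 24 h. Different numbers of 1 time correlated at medians of -0.368 to -0.074. In MINO at 72 h they reached 0.332, for DMSO replicate 3 with GS716054 replicate 1. This was above the 0.287 of the 2 libraries numbered 3, so the number did not mark the closest partner there. Between times, same-numbered DMSO libraries correlated at -0.065 to 0.169. In the other groups they did so at medians of 0.041 (JEKO), 0.164 (MINO) and 0.157 (UPN-1), up to 0.303, against -0.046, -0.105 and -0.082 for different numbers. Every pair exceeded 0.1 in 1 of 12 pairs of groups between times. The number was used as a block within each time, where the sharing was stronger, a choice made after seeing the data. Counts with a block across both times are given beside the DMSO results. Rule for named genes: 14 fixed genes, and in each comparison of DMSO with GS716054 or of times in DMSO the 2 largest called changes in each direction, without the block or, where none was called, with it. KIF2C, CDC25B, NDC80, NUF2, PTTG1 and other genes named were chosen after their values were seen. The 53 genes and all lists were chosen with earlier results of these data known.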

Additional observations from a re-analysis of the deposited data

Results flagged for a closer look

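CDC25B was above DMSO in every GS716054 library of MINO at 72 h (log2 fold change 0.24) and below DMSO in every GS716054 library of UPN-1 at 72 h (-0.40). The opposite direction of the 2 lines drew attention to it, and that pair of lines was not tested by itself. In the test of a difference among all 3 lines the adjusted p (edgeR) was 0.155 unpaired and 0.00138 when replicate numbers were blocked within each time.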

How the results depend on the processing

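Numbers here are counts of the 53 genes called by edgeR unless DESeq2 is named, each followed by the share of all genes called under that setting. The cause of each shift was not tested. Without the low-count filter the counts were 1 (MINO 24 h, 3.85%), 9 (MINO 72 h, 5.46%), 44 (DMSO over time in JEKO, 17.9%), 9 (MINO, 6.32%) and 1 (UPN-1, 6.43%), 1 and 16 for the mean over lines at 24 h and 72 h (1.14% and 3.71%), and 1 for the difference among lines at 72 h (1.67%). With DESeq2 size factors or a minimum count of 50, MINO at 72 h gave 2 (5.6% and 7.04%). DESeq2 called 3 in MINO at 72 h (10.4%), 1 each in MINO and UPN-1 DMSO over time (6.53% and 6.73%), and 2 for the mean at 72 h (6.79%). MAD2L1 in JEKO DMSO had an adjusted p of 0.0520 and 0.0745 under those 2 edgeR settings.

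With the replicate number as a block across both times the counts were 7 (MINO 72 h, 10.2%), 2 (UPN-1 72 h, 1.46%), 36, 4 and 7 (DMSO over time in JEKO, MINO and UPN-1, 36.8%, 12.1% and 18.3%), 8 (mean at 72 h, 8.6%) and 1 (difference among lines at 72 h, 2.94%). With the block within each time they were 3 and 24 (MINO 24 h and 72 h, 15.8% and 20.2%), 1 and 25 (UPN-1, 1.5% and 7.47%), 5 and 44 (mean, 9.2% and 16.7%) and 1 and 4 (difference among lines, 5.74% and 9.78%).

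Counts of the 53 follow for fits with fewer libraries. The count of all genes called moved between these fits too, and is given for part of them. Where it is not given, as for UPN-1, a shift is not read as particular to the 53. In JEKO DMSO the count of all genes was 3544 of 17017 without replicate 1 at 72 h and 4765 of 17200 without replicate 2 at 72 h. For the mean at 72 h it was 963 of 18498 without MINO GS716054 replicate 1. Leaving out 1 library gave 0 to 8 in MINO at 72 h (8 without GS716054 replicate 1), 0 to 1 in UPN-1 at 72 h, 4 to 22 in JEKO DMSO, 0 to 13 in UPN-1 DMSO (13 without DMSO replicate 3 at 72 h) and 0 to 8 for the mean at 72 h (8 without MINO GS716054 replicate 1), and 0 elsewhere. Leaving out 1 number with the block across times gave 0 to 6 (MINO 24 h), 0 to 18 (MINO 72 h), 0 to 1 (UPN-1 72 h), 12 to 29, 0 to 30 and 0 to 21 (DMSO in JEKO, MINO and UPN-1), 0 to 1 (effect at 72 h minus 24 h in MINO), 1 to 6 (mean at 72 h) and 0 to 1 (difference at 72 h). With the block within each time it gave 0 to 6 (MINO 24 h), 0 to 2 (UPN-1 24 h), 0 to 1 (JEKO 72 h), 4 to 32 (MINO 72 h), 2 to 23 (UPN-1 72 h; 17 without number 2), 0 to 2 (effect at 72 h minus 24 h in MINO), 0 to 6 and 19 to 30 (mean at 24 h and 72 h) and 1 to 5 (difference at 72 h). Over all genes in MINO, the block across times called 2534 (24 h), 4014 (72 h) and 4853 (DMSO) of 15102 without number 2. Without number 3 it called 26, 130 and 40 of 15186. The block within each time called 810, 2724 and 1243 genes (MINO 24 h) without numbers 1, 2 and 3. At 72 h in MINO it called 1295, 4233 and 1392. For the mean at 72 h it called 1297 of 17947, 2317 of 18075 and 1639 of 18190. In JEKO DMSO the block across times called 4073 of 16629, 4974 of 16869 and 2270 of 17001 without numbers 1, 2 and 3. CENPE over time in MINO DMSO turned to -0.11 with the block and without replicate 3, and CDC20 in MINO at 72 h to 0.03 without GS716054 replicate 2 (-0.58 without replicate 1). Of all values recomputed, 1143 kept direction and side of the threshold, 197 gained and 50 lost the call.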
